A study of Homo sapiens with 8 samples.

Results

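The epidermal gene clusters of the human genome were examined as 688 windows of 5 kb, out of 607271 such windows on chromosomes 1 to 22 and X. The rule takes them by position and uses no measured value: chr12:52560001-53350000 (158 windows, type II keratins), chr17:38800001-39800000 (200 windows, type I keratins and keratin-associated proteins) and chr1:151950001-153600000 (330 windows, the epidermal differentiation complex), on GRCh37, the build that the peak positions match. H3K27me3 was measured by chromatin immunoprecipitation and sequencing in MOLM14, a human acute myeloid leukaemia cell line driven by FLT3-ITD, an activating internal tandem duplication in the receptor kinase FLT3. The cells had been kept for 24 h with the vehicle DMSO or with AC220 (quizartinib), an inhibitor of FLT3, at a dose the labels do not give. Each treatment has 2 immunoprecipitated libraries, here DMSO 1 and AC220 1 (set 1, by the number in their titles) and DMSO 2 and AC220 2 (set 2), and all had Drosophila S2 cells mixed in before lysis. The labels do not say that the libraries of a treatment came from separate cultures, so the spread between them may be technical. The readout was the covered share, the percentage of bases of a window or block that lie inside a deposited peak of that library.

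H3K27me3 is laid down by Polycomb repressive complex 2, whose catalytic subunit is EZH2 or EZH1, and marks silent developmental and lineage genes in cells of other lineages. Keratins are the intermediate filament proteins of epithelia, and a filament pairs a type I with a type II keratin. Keratin-associated proteins (KRTAP genes) crosslink the filaments of hair. The epidermal differentiation complex holds the filaggrin-type fused S100 genes (FLG, FLG2, HRNR, RPTN, CRNN, TCHH, TCHHL1), the late cornified envelope (LCE) genes, the small proline-rich (SPRR) genes, IVL (involucrin) and LORICRIN, whose products build the cornified envelope of dying keratinocytes. The S100 genes, which encode small calcium-binding proteins, lie at both ends of it. S100A8 and S100A9 form calprotectin, and with S100A12 they are among the most abundant products of neutrophils and monocytes, so this stretch holds myeloid genes inside an epidermal cluster.

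The sequences just before the start of 7 genes are shown so that the CG content of genes inside the clusters can be set beside that of genes at the ends of the epidermal differentiation complex. Each is the 250 bases before the gene's outermost start in RefSeq (GRCh38.p14, read 5′ to 3′ on the gene's strand), with every CG in capitals. S100A9 (chr1:153357604-153357853, + strand), S100A12 (chr1:153375622-153375871, − strand) and S100A8 (chr1:153391189-153391438, − strand) are the myeloid genes. IVL (chr1:152908296-152908545, + strand) comes from the middle of the complex, and KRT85 (chr12:52367482-52367731, − strand), a hair keratin, from the type II cluster. S100A10 (chr1:151993860-151994109, − strand) is the first gene of the complex in the RefSeq order and S100A6 (chr1:153535992-153536241, − strand) lies near its other end.
S100A9: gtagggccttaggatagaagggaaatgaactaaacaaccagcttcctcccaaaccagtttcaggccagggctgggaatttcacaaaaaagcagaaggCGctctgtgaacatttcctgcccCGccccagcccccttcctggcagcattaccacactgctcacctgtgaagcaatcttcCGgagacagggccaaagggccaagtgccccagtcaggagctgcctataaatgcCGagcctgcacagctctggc
S100A12: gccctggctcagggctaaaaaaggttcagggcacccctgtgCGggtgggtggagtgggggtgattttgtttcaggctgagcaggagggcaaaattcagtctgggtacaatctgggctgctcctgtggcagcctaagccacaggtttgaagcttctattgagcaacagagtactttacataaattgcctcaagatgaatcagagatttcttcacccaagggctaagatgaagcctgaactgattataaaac
S100A8: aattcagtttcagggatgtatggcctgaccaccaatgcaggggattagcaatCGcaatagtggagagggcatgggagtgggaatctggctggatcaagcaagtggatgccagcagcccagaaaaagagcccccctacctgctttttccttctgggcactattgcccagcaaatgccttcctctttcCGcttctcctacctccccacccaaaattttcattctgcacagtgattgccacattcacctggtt
IVL: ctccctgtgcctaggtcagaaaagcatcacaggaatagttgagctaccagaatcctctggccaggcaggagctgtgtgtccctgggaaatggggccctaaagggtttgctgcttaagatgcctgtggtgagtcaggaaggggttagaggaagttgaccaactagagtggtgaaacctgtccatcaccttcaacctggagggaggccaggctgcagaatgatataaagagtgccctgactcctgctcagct
KRT85: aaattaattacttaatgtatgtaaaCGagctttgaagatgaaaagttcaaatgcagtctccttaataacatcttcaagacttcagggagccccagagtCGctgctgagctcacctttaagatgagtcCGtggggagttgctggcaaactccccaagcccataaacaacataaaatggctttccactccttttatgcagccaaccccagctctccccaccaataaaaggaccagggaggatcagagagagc
S100A10: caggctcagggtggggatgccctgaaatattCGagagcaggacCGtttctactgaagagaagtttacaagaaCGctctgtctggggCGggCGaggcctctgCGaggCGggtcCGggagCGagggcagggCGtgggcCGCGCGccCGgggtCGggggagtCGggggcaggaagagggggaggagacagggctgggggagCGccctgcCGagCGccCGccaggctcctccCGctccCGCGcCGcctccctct
S100A6: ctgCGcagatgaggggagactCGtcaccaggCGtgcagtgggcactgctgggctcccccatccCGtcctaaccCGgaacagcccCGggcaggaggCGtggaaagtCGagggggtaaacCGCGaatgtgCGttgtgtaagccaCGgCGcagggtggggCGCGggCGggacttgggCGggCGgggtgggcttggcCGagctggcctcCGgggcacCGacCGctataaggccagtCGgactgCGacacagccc
These 250 bases held 4 CG in S100A9, 1 in S100A12, 2 in S100A8, 0 in IVL and 3 in KRT85, against 24 in S100A10 and 24 in S100A6.

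Among the genes that could be counted, promoters poor in CG were the rule in all 3 clusters. The RefSeq table lists 152 genes there, 126 of which have a promoter entry of 300 bases (250 before to 50 after the start). CG, which reads the same on both strands, was counted in each. The median was 2 CG per promoter, and 5 of the 126 (3.97%) held at least 10, against a median of 13 and 55.9% among the 27305 genes with an entry in the table. Of the keratin genes, 14 of 27 in the type II block and 20 of 28 in the type I block had an entry. Medians were 2 for those 14 (range 0 to 8), 2 for those 20 (0 to 8) and 2 for 33 KRTAP genes (0 to 11). In the epidermal differentiation complex they were 1 for the 7 fused S100 genes, 3 for 18 LCE genes, 2 for 9 SPRR genes and 5 for the 16 S100 genes. S100A10 (32), S100A6 (31), S100A11 (22) and S100A13 (19) held the most, and all 4 lie outside the 52 genes from TCHHL1 to S100A7 in the RefSeq order. None of the 48 promoters with an entry between those genes reached 10, with a highest value of 6, whereas 4 of 11 did outside them (36.4%), a division chosen after the values were seen. The counts describe these windows of sequence and give no measure of Polycomb binding.

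**Figure D1:**
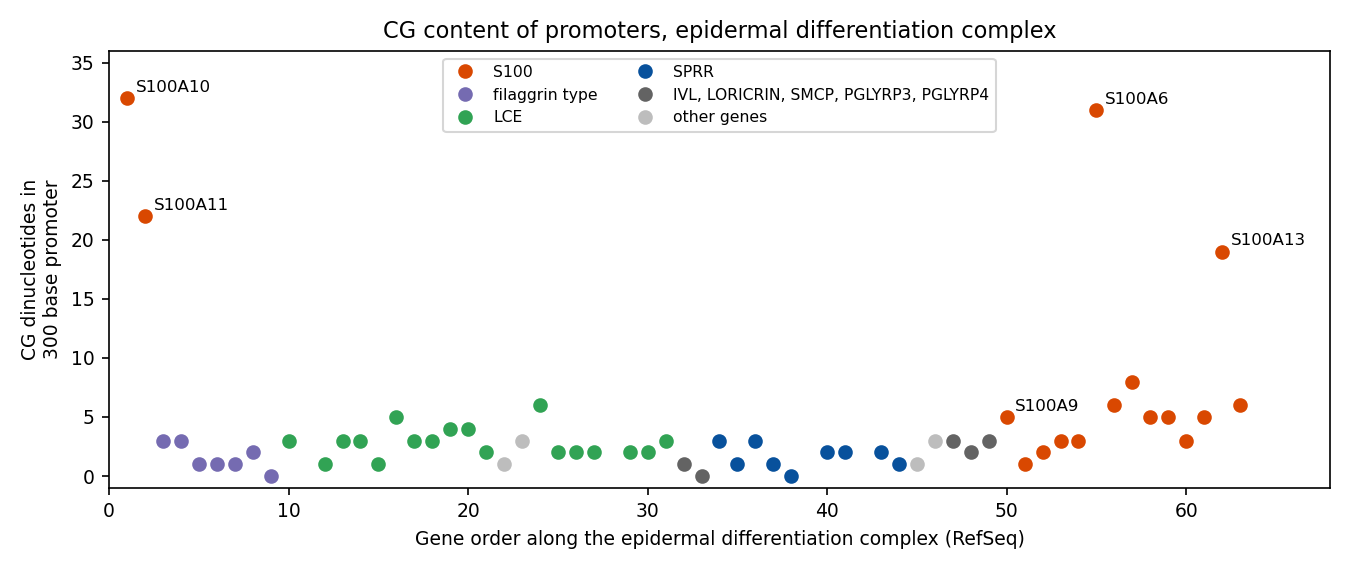
CG dinucleotides in the 300 base promoter (y axis) of each gene of the epidermal differentiation complex with a RefSeq promoter entry, in RefSeq gene order (x axis), coloured by family. The 4 promoters with at least 10 CG are S100 genes at the ends of the order, and every promoter from TCHHL1 to S100A7 has at most 6.

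The peak lists as a whole set limits on every comparison. They hold 105063 peaks in DMSO 1, 104660 in AC220 1, 117708 in DMSO 2 and 139812 in AC220 2. Together the peaks of a library covered 232, 192, 590 and 496 Mb in that order, so both set 2 lists covered more than both set 1 lists, and AC220 less than DMSO within each set. The lists hold no read counts, so depth is unknown, and no gene expression with which the labelled cell type could be checked. A mark present in fewer cells and a weaker mark in every cell cannot be told apart in such bulk samples. With 2 libraries against 2, the smallest p-value an exact two-sided permutation test can give is 0.333. In all 3 blocks both set 2 shares lay above both set 1 shares. The test then gives 0.667 for any difference of the same direction in both sets. Such a p does not measure the size of the difference.

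All 3 clusters were densely marked in every library, several-fold above their chromosomes. The type II keratin block was covered to 27.2% in DMSO 1, 27.3% in AC220 1, 51.6% in DMSO 2 and 55.6% in AC220 2, when the rest of chromosome 12 was covered to 8.50%, 6.83%, 21.2% and 17.9%. The type I block was covered to 27.6%, 23.3%, 61.6% and 59.5% in the same order, beside 7.90%, 7.62%, 17.2% and 16.9% for the rest of chromosome 17. In the epidermal differentiation complex the shares were 37.4%, 27.2%, 69.0% and 62.1%, beside 9.61%, 8.20%, 21.4% and 19.0% for the rest of chromosome 1. Block to chromosome ratios were thus between 2.43 and 4.004 in type II, 3.06 and 3.57 in type I, and 3.23 and 3.89 in the epidermal differentiation complex. Over all 3 blocks the share was 32.2%, 26.1%, 62.9% and 59.8%, which is 4.23, 4.15, 3.24 and 3.67 times the share of the remaining genome.

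Coverage was lower beyond the borders of each cluster. Flanks of the same 1000 kb length before and after the type I block were covered to between 2.86% and 8.58% in the 4 libraries, below the rest of the chromosome in each. Flanks of 1650 kb around the epidermal differentiation complex were covered to between 7.92% and 14.7% before it and between 15.99% and 27.7% after it. The 790 kb flank before the type II block was covered to 16.6%, 18.3%, 40.0% and 38.5%, and the flank after to between 4.94% and 11.5%. In the plot of blocks and surroundings the block lies above both flanks in every library.

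**Figure D2:**
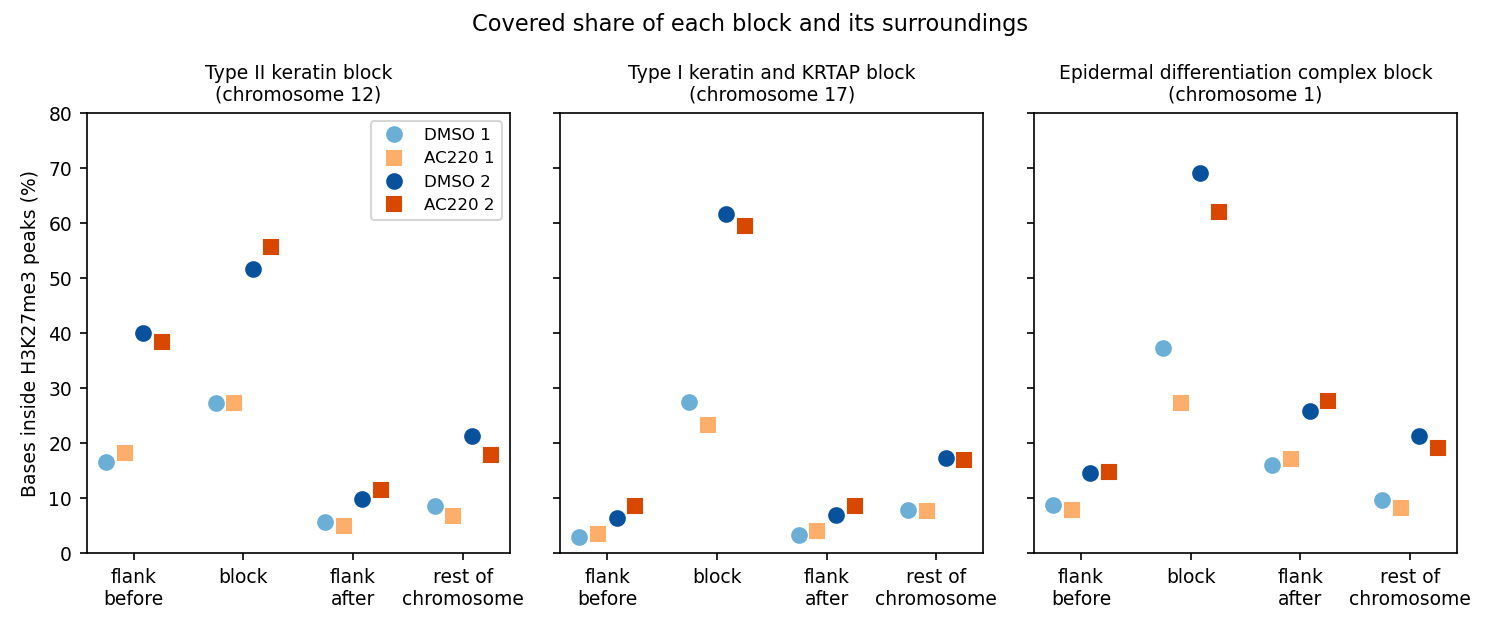
Percentage of bases inside H3K27me3 peaks (y axis) in each block, in the flank of equal length on each side and in the rest of the chromosome; circles are DMSO and squares AC220 libraries, pale for set 1 and dark for set 2. In each of the 3 blocks all 4 libraries exceed their own value in both flanks and in the rest of the chromosome.

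Few windows of the clusters were free of peaks in all 4 libraries. Of the 688 windows, 602 (87.5%) held a peak in at least 1 library, against 35.4% of all windows. A peak was present in all 4 libraries in 417 (60.6%), against 14.4% of all windows. In single libraries, windows without a peak numbered 199 in DMSO 1, 223 in AC220 1, 110 in DMSO 2 and 97 in AC220 2. Of all 607271 windows, 491262, 502001, 409237 and 422178 had none in the same order. By cluster, the share with a peak in all 4 was 57.0% for type II, 61.5% for type I and 61.8% for the epidermal differentiation complex. Windows covered over their whole length in all 4 libraries numbered 9, each of them in the epidermal differentiation complex, where they make up 2.73% of its windows against 0.597% of all windows. Of the bases marked in at least 1 library, 25.1% were marked in all 4, against 19.0% in the genome, and 24.6% in set 2 alone, against 25.9%.

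Within the clusters coverage dropped toward both ends of the type II block and of the epidermal differentiation complex. In stretches of 50 kb, the first type II stretch was covered to at most 0.892% in any library and the last, of 40 kb, held no peak in any. Coverage was highest there in chr12:52710001-52760000, at 52.3%, 66.6%, 79.9% and 85.9%. The first and last stretches of the epidermal differentiation complex lay between 3.44% and 19.1% and between 0% and 5.46%, and chr1:153100001-153150000 was the highest at 75.3%, 50.4%, 100% and 95.6%. Its lowest stretch was chr1:153500001-153550000, at 0%, 0%, 2.42% and 2.66%. Type I coverage was lowest in its first stretch, chr17:38800001-38850000 (8.59%, 7.18%, 30.7% and 29.4%), and highest in chr17:38900001-38950000 (48.7%, 36.9%, 94.8% and 94.0%). Its last stretch was still covered to 32.2%, 23.3%, 43.5% and 55.0%.

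**Figure D3:**
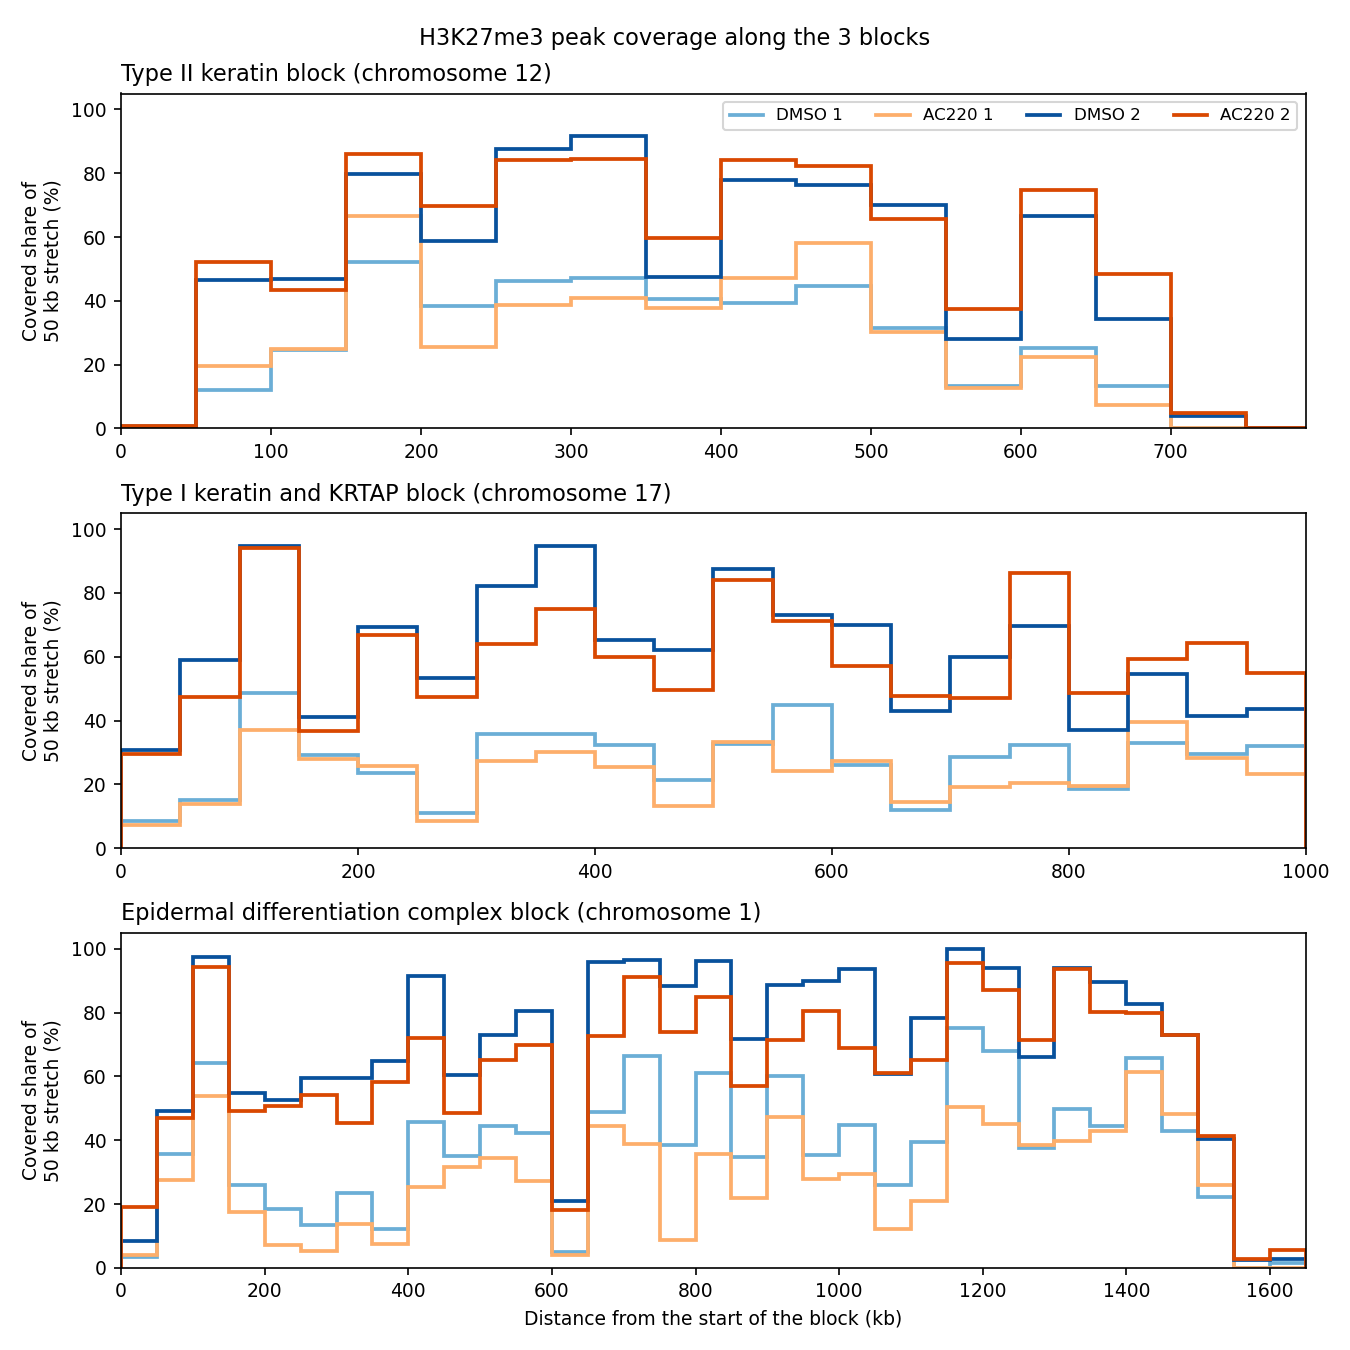
Share of each 50 kb stretch inside H3K27me3 peaks (y axis, %) against the distance from the start of the block (x axis, kb) in the 4 libraries. Both set 2 libraries run above both set 1 libraries over most of each block, and coverage falls to near 0 at both ends of the type II block and at the right end of the epidermal differentiation complex.

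The longest marked and unmarked intervals differed between the clusters. Free of peaks in all 4 libraries were chr12:53287640-53350000 (62.4 kb, running to the end of the block), chr17:38970705-38998863 (28.2 kb) and chr1:153478127-153548668 (70.5 kb). The longest intervals inside peaks of all 4 libraries were in the epidermal differentiation complex: chr1:152407321-152420578 (13.3 kb), chr1:153342369-153355042 (12.7 kb) and chr1:153367034-153377050 (10.0 kb). In the type II block they were chr12:52736240-52744147 (7.91 kb), chr12:52701112-52706889 (5.78 kb) and chr12:52880665-52885370 (4.71 kb). The type I block had chr17:38961570-38967041 (5.47 kb), chr17:39778432-39783742 (5.31 kb) and chr17:39444228-39449368 (5.14 kb). Apart from S100A9 and KRT85, no gene position on GRCh37 was at hand, so these intervals are not tied to genes here. Spacing on GRCh38.p14 is used only for S100A12 and S100A8, below.

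The question the design puts to these clusters is whether 24 h of FLT3 inhibition changed their H3K27me3. The epidermal differentiation complex was covered less with AC220 in both sets. Its share was lower by 10.1 percentage points in set 1 (27.1% below the DMSO value, −0.46 on the log2 scale) and by 6.94 points in set 2 (10.1% below, −0.15). The rest of chromosome 1 was 14.7% and 10.8% below its DMSO value in the same sets, so in set 2 the complex and its chromosome were lower by about the same proportion. Outside the 3 blocks, chromosomes 1 to 22 and X were 17.1% and 15.9% below. In proportion the complex was thus lower by more than the remaining genome in set 1 and by less in set 2. Means were 53.2% ± 22.4 for DMSO and 44.7% ± 24.6 for AC220 (SD, n = 2 each; exact permutation test, two-sided, p = 0.667). The difference of −8.54 points was smaller than the spread between the libraries of a treatment, which includes the gap between sets. Neither that spread nor the p measures the differences within sets. Relative to the rest of the chromosome the log2 ratio differed by −0.23 in set 1 and 0.01 in set 2 (exact permutation test, p = 1). Without AC220 1 the difference in means was 8.89 points and without DMSO 2 it was 7.29 points. Such comparisons leave the treatments with unequal shares of set 1 and set 2 libraries, and the cause of the turn was not tested. Both sets were still lower with AC220 after each DMSO list had been shortened to the covered length of its AC220 list, at −7.38 and −5.55 points.

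The lower coverage with AC220 was seen along the inner stretches of the complex, with differences of −13.7 points in set 1 and −9.87 points in set 2, against −0.996 and −0.963 points on its S100 side. Points depend on the DMSO share, so they are not comparable with points in sparsely marked sequence. Of the 33 stretches of 50 kb in the complex, 26 (78.8%) were lower in both sets, against 39.5% of all 35548 stretches with a peak, and 3 were higher in both, against 9.46%. Densely marked stretches were lower in both sets more often genome-wide too: with a mean share of at least 25%, a limit chosen after the data were seen, 25 of 29 were (86.2%), against 58.1% of 12055. From chr1:152000001 to 153200000, 23 of 24 stretches were lower with AC220 in both sets. Over this length the share went from 40.2% in DMSO 1 to 26.6% in AC220 1, and from 75.8% in DMSO 2 to 65.9% in AC220 2. The exception, chr1:153000001-153050000, was covered to 26.1% and 12.1% in set 1 and to 60.8% and 60.9% in set 2. In set 1 the difference was largest in chr1:152700001-152750000, from 38.4% to 8.59%, where set 2 went from 88.2% to 73.8%. From chr1:153200001 to 153500000, which includes S100A9, S100A12 and S100A8, DMSO and AC220 libraries covered 43.8% and 42.8% (set 1) and 74.3% and 73.3% (set 2). There 3 of 6 stretches were lower in both sets and 2 were higher in both. The 2 lengths were set apart after their values were seen, so their difference was not tested.

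The type II keratin block was not covered less with AC220. Its share was higher by 0.142 points in set 1 and by 3.94 points in set 2 (0.01 and 0.11 on the log2 scale), when the rest of chromosome 12 was 19.7% and 15.5% below its DMSO value. Means were 39.4% ± 17.3 for the DMSO libraries and 41.5% ± 19.9 for the AC220 libraries (SD, n = 2 each; exact permutation test, two-sided, p = 0.667). Against the rest of the chromosome its log2 ratio was higher by 0.32 in set 1 and 0.35 in set 2 (exact permutation test, p = 0.667). Of 15 stretches with a peak, 4 were higher in both sets, 3 lower in both and 8 neither. Among the 12 with a mean share of at least 25%, 3 were lower in both (25%; 58.1% genome-wide) and 4 higher in both (33.3%; 10.2% genome-wide). With only peaks of −log10 q of at least 2 the difference turned to −1.70 points and with at least 3 to −0.938 points, and it turned to −10.2 points without DMSO 1 and to −12.1 points without AC220 2.

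The type I block was lower with AC220 by 4.24 points in set 1 and 2.05 points in set 2, or 15.4% and 3.33% below the DMSO value. Means were 44.6% ± 24.1 and 41.4% ± 25.6 (SD, n = 2 each; exact permutation test, two-sided, p = 0.667). The first 750 kb were covered to 27.05% and 22.3% in set 1 and 65.7% and 58.5% in set 2, with 11 of 15 stretches lower in both. Over the whole block 10 of 19 stretches with a mean share of at least 25% were lower in both (52.6%), near the 58.1% found genome-wide. In the last 250 kb set 1 went from 29.1% to 26.3% and set 2 from 49.3% to 62.7%, and no stretch of 5 was lower in both; this division too was made after the values were seen. Both flanks of the block were higher with AC220 in both sets, by 20.7% and 33.8% before it and 27.7% and 24.1% after it, from low levels. The difference in means turned to 3.29 points after each DMSO list had been shortened to the length of its AC220 list, to 2.28 points with all lists shortened to the smallest, to 14.96 points without AC220 1 and to 13.9 points without DMSO 2.

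**Figure D4:**
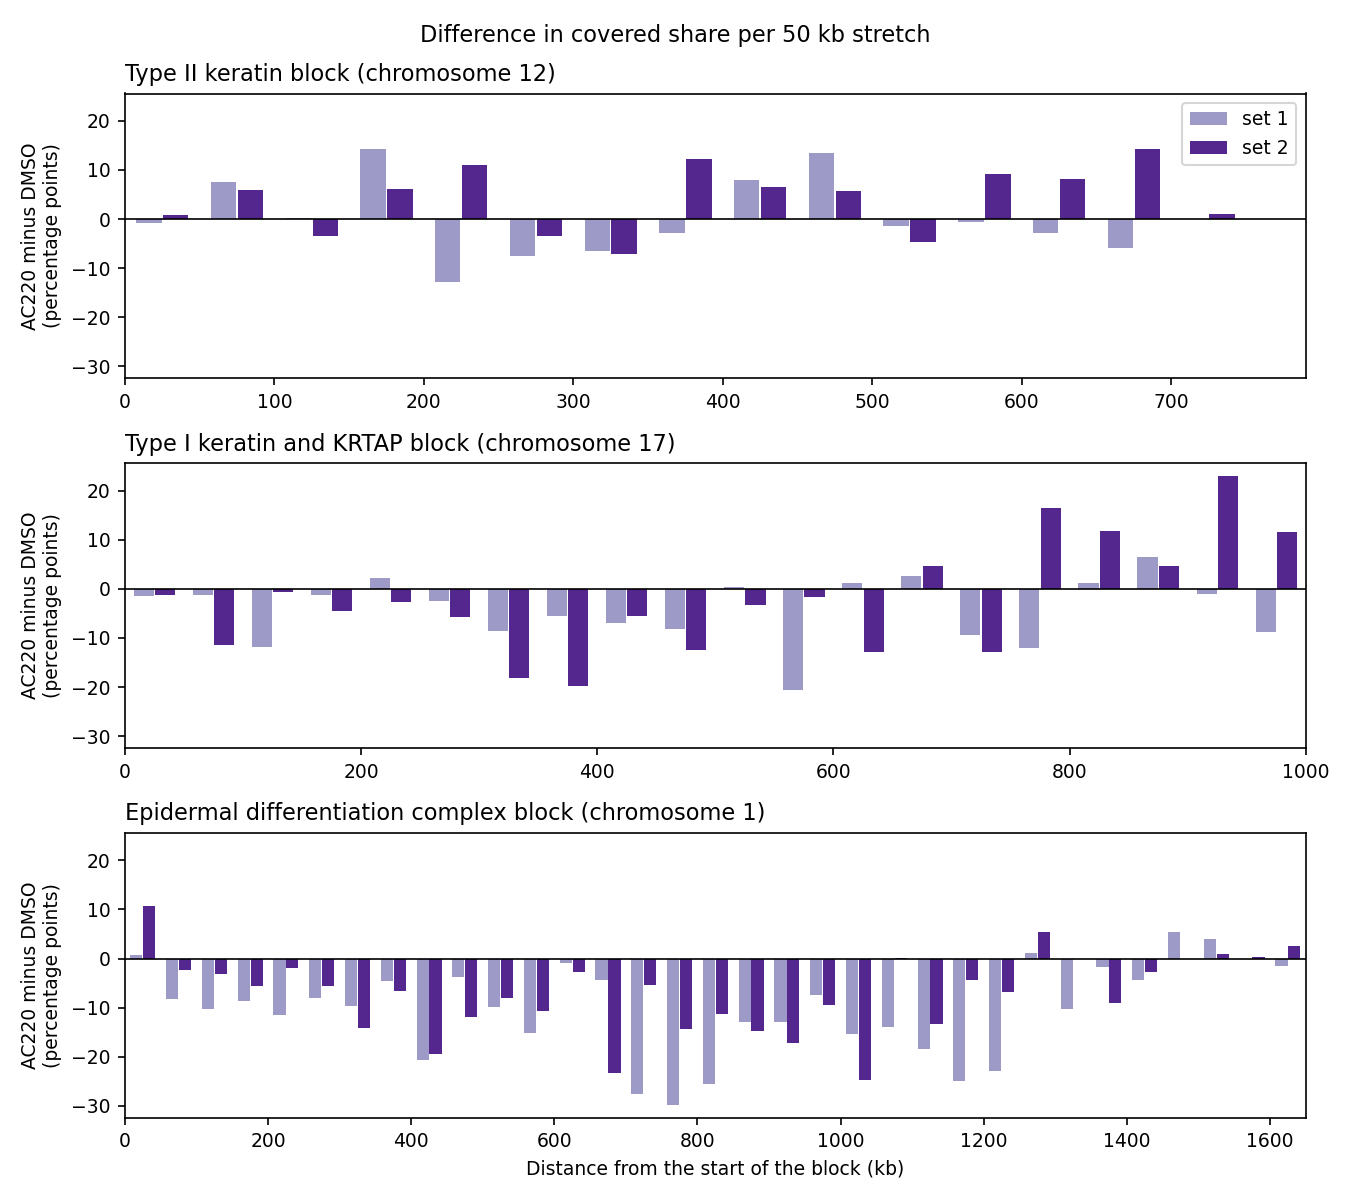
AC220 minus DMSO difference in covered share (y axis, percentage points) of each 50 kb stretch against the distance from the start of the block (x axis, kb), for set 1 and set 2. Bars of both sets point down through most of the epidermal differentiation complex (26 of 33 stretches) and through 11 of 20 type I stretches, against 3 of the 15 type II stretches with a peak. Genome-wide it is 39.5% of stretches with a peak. Among stretches with a mean share of at least 25% it is 86.2% in the complex, 52.6% in type I and 25% in type II, against 58.1% genome-wide.

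Coverage of the epidermal differentiation complex relative to the type II keratins was lower in both AC220 libraries than in either DMSO library. The log2 ratio of their covered shares was 0.46 in DMSO 1 and 0.42 in DMSO 2, against −0.01 in AC220 1 and 0.16 in AC220 2. The groups did not overlap, and the difference was −0.36 (0.44 ± 0.03 against 0.08 ± 0.12, SD, n = 2 each), at the smallest p the exact permutation test allows, 0.333. This pair of blocks was picked after its values were seen, out of 3 pairs. The other pairs, the complex over type I and type I over type II, gave −0.16 and −0.20, each with p = 0.667 by the same exact test. With −log10 q of at least 2 the difference was 0.53 (1.35 in set 1 and −0.28 in set 2), and with at least 3 it was 0.31 (1.02 and −0.41), so the sign turned in set 1 alone. After each DMSO list had been shortened to the length of its AC220 list it was −0.64 (exact permutation test, p = 0.333). With all lists shortened to the smallest it was −1.29 (−0.76 and −1.82), but the groups then overlapped (exact permutation test, p = 0.667).

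Single windows rarely separated the treatments across both sets. A window was called when all libraries of a treatment lay at least 25 percentage points below all of the other, which 0.0883% of all windows did in the direction of lower with AC220 and 0.0171% in the direction of higher. In the clusters 1 of 688 was called lower and 0 higher. A lower call needs DMSO 1 above AC220 2, although over the 3 blocks together these covered 32.2% and 59.8%. A higher call needs AC220 1 above DMSO 2, which covered 26.1% and 62.9%. The rule therefore does not read differences within a set. The called window was chr1:153075001-153080000 in the epidermal differentiation complex, covered to 68.3% in DMSO 1 and 94.8% in DMSO 2 but to 4.54% in AC220 1 and 36.9% in AC220 2. The complex's longest run of bases that only the pair of DMSO libraries marked fell inside it, at chr1:153078695-153079918 (1.22 kb).

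A looser rule, a difference of at least 10 points in the same direction in both sets, found 81 windows lower with AC220 (11.8%; 3.47% of all windows) and 31 higher (4.51%; 0.812% of all windows). Because the clusters hold more marked windows than the genome, the shares were also taken among windows with a peak in any library: 13.5% of 602 were lower, against 9.81% genome-wide, and 5.15% were higher, against 2.3%. The clusters divided differently. In the epidermal differentiation complex 48 of 288 marked windows were lower (16.7%) and 6 higher (2.08%). In the type II block 11 of 127 were lower (8.66%) and 17 higher (13.4%), and in the type I block 22 of 187 were lower (11.8%) and 8 higher (4.28%). Another 59 windows differed by at least 10 points in opposite directions in the 2 sets. A window covered to 100% in both set 2 libraries cannot be counted by this rule. With only peaks of −log10 q of at least 2 the counts were 24 lower and 2 higher, against 0.713% and 0.148% of all windows.

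Some windows outside the naming rule were picked after their values were seen, ranked by the smaller of their differences in the 2 sets. After the called window, the next windows in the direction of lower were chr1:152290001-152295000 (38.7% and 0% in set 1, 100% and 59.2% in set 2) and chr1:152695001-152700000 (38.6% and 0%, 100% and 56.0%). In the direction of higher, the first 3 by this ranking were the type II windows chr12:52865001-52870000 (3.82% and 39.3%, 50.5% and 89.5%), chr12:52750001-52755000 (9.06% and 40.6%, 25.9% and 72.2%) and chr12:53155001-53160000 (0% and 45.1%, 52.2% and 83.2%). The second of these overlaps the 3′ end of KRT85.

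Bases marked in both libraries of 1 treatment and in none of the other were few. Bases that the pair of DMSO libraries marked and no AC220 library did amounted to 24.2 kb in the epidermal differentiation complex (1.998% of its marked bases), 9.32 kb in type I (1.30%) and 7.39 kb in type II (1.47%), against 1.76% in the genome. The reverse pattern covered 2.49 kb in the complex (0.206%), 6.87 kb in type I (0.956%) and 11.1 kb in type II (2.20%), against 0.522%. The type II block was the only one of the 3 with more AC220-only than DMSO-only sequence.

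Peaks of the epidermal differentiation complex were narrower with AC220 in both sets. The median peak there was 1858 bp wide in DMSO 1 and 1173 bp in AC220 1, and 5800 bp in DMSO 2 and 3518 bp in AC220 2, beside medians of 1211, 996, 2319 and 1612 bp over the 4 lists. Peaks of at least 10 kb numbered 13 (DMSO 1), 3 (AC220 1), 32 (DMSO 2) and 37 (AC220 2). The number of peaks was higher with AC220 in both sets there, at 204 and 213 (set 1) and at 96 and 163 (set 2). The widest peak of the complex in DMSO 2 was chr1:153084510-153162982 (78.5 kb), of which AC220 2 covered 89.1%, DMSO 1 69.9% and AC220 1 46.2%. The widest in AC220 2 was chr1:152644797-152686315 (41.5 kb), those of set 1 being chr1:152379202-152392881 in DMSO 1 (13.7 kb) and chr1:152407156-152421067 in AC220 1 (13.9 kb).

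Type II keratin peaks were narrower with AC220 in set 1 and wider in set 2, with medians of 1371 and 1239 bp (set 1) and 2681 and 3904 bp (set 2). Type I peaks were narrower in both, with medians of 1144 and 1023 bp (set 1) and 2780 and 2442 bp (set 2). The widest type II peaks were chr12:52732229-52744388 in DMSO 1 (12.2 kb), chr12:53008760-53017101 in AC220 1 (8.34 kb), chr12:52872324-52910547 in DMSO 2 (38.2 kb) and chr12:52979586-53019311 in AC220 2 (39.7 kb). The widest type I peaks were chr17:38933371-38944318 in DMSO 1 (10.9 kb), chr17:38961570-38969777 in AC220 1 (8.21 kb), chr17:39148059-39187969 in DMSO 2 (39.9 kb) and chr17:38913559-38946419 in AC220 2 (32.9 kb).

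The interval that the rule gives for S100A8, S100A9 and S100A12, chr1:153330001-153360000, was covered above the level of the whole complex in every library. It holds S100A9. On GRCh38.p14 the starts of S100A9 and S100A8 lie farther apart than the length of this interval. With the same spacing on GRCh37 the S100A8 start falls outside it, so the shares are not a reading of S100A8. The 6 windows of the interval were covered to 52.5% in DMSO 1, 64.0% in AC220 1, 93.8% in DMSO 2 and 89.1% in AC220 2. With AC220 the share was higher by 11.5 points in set 1 and lower by 4.66 points in set 2, so the sets moved in opposite directions. Both of its middle windows, chr1:153345001-153350000 and chr1:153350001-153355000, were covered to 100% in every library. They lie in the interval of 12.7 kb, named above, that was inside peaks of all 4 libraries.

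A single peak of each library spanned this core, described here with the authors' fold enrichment for the peak. The peaks were chr1:153342100-153355042 in DMSO 1 (12.9 kb, fold 3.56), chr1:153342369-153355764 in AC220 1 (13.4 kb, 3.23), chr1:153329251-153358132 in DMSO 2 (28.9 kb, 3.26) and chr1:153333299-153357896 in AC220 2 (24.6 kb, 3.02). The DMSO 2 peak had the highest −log10 q of any of that library's peaks in the complex, 8.34, against a median of 2.41. Fold values belong to their own list and were not compared between libraries.

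At S100A9 itself the sets differed. This gene (chr1:153330330-153333503, + strand, 3 exons) was free of peaks in both set 1 libraries, from promoter to last exon. In set 2, the promoter and exons 1 and 2 lay inside a peak in both libraries. The gene body was covered to 100% in DMSO 2 and to 63.4% in AC220 2. The AC220 2 gap lay between the peak chr1:153329290-153332137 (2.85 kb, fold 1.92) and the next one, and left exon 3 covered to 53.4% against 100% in DMSO 2. The interval marked in all 4 libraries began 12.04 kb and ended 24.7 kb downstream of the S100A9 start. S100A12 and S100A8 follow S100A9 in the RefSeq order, but their GRCh37 positions were not at hand. With the GRCh38.p14 spacing from S100A9, the S100A12 start would fall inside the interval marked in all 4 libraries.

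**Figure D5:**
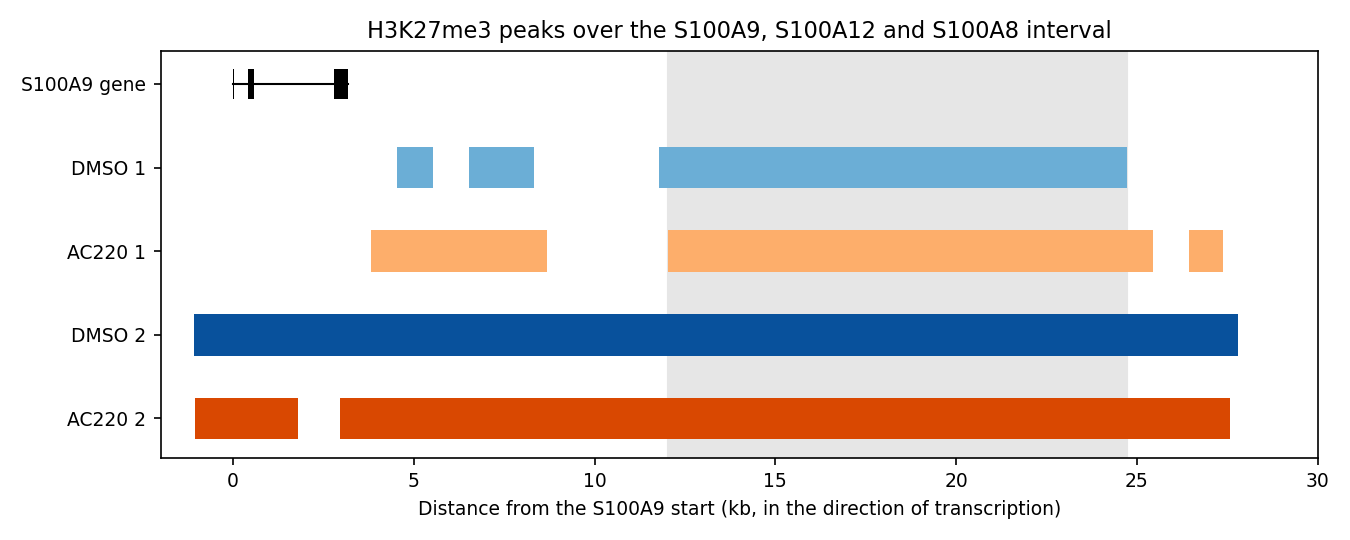
H3K27me3 peaks of the 4 libraries (bars) against the distance from the S100A9 start (x axis, kb), with the S100A9 gene and its exons in black at the top and the interval inside peaks of all 4 libraries shaded. The shaded interval lies 12.04 to 24.7 kb from the start, and S100A9 is overlapped by peaks of the set 2 libraries only.

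KRT85 was the one keratin gene that could be placed (chr12:52753790-52761309, − strand, 9 exons). Its body was covered to 30.9% and 19.6% in set 1 and to 27.2% and 47.8% in set 2, lower with AC220 in the first and higher in the second. Exon 2 was covered to 100% in every library and exons 4 to 7 to 0% in every library. The promoter window of 300 bases was at 0% in both set 1 libraries, at 100% in DMSO 2 and at 54.3% in AC220 2. Exon 9, the last, was covered to 43.5% and 64.1% in set 1 and to 100% in both set 2 libraries. With 10 kb added on each side the share was 20.1%, 27.6%, 47.5% and 66.9%, higher with AC220 in both sets.

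The libraries of the same set resembled each other more than those of the same treatment. Over the 688 windows, which share libraries and neighbouring sequence, Pearson's r of covered share was 0.753 within set 1 and 0.854 within set 2, against 0.693 for the DMSO pair and 0.687 for the AC220 pair. This did not hold for set 1 in type II, where the AC220 pair was at 0.758 and set 1 at 0.753. In type I the AC220 pair and set 1 were nearly equal, at 0.666 and 0.667. The differences between treatments correlated weakly between the sets, with r = 0.128 over the 688 windows and 0.0869 over all windows. By cluster the correlation of differences was 0.20 in type II, 0.04 in type I and 0.08 in the epidermal differentiation complex. The sign of the difference per 50 kb stretch was the same in both sets in 7 of 15 stretches with a peak in type II, 14 of 20 in type I and 29 of 33 in the epidermal differentiation complex.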

How the data were processed

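MOLM14 cells were treated with DMSO or AC220 for 24 h; the 4 immunoprecipitated libraries have 1 deposited list of broad peaks each, so peaks were called per library, and the 4 input samples were not used here. Treatment and number came from the sample titles. Per the submitters' processing notes the tools were BWA 0.7.10-r789 and MACS2 2.1; their settings, and any use of inputs or Drosophila reads in the calls, are not stated. Peak positions in bp are as deposited, printed counting from 1. The deposited fold enrichment is the authors' ratio for each peak, the deposited score was not used, and the p-value and q-value are given by the authors as −log10. The deposited lists hold no counts, so no interval that needs depth is given.

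No source used here names the genome build, and the contigs and peak ends fit GRCh37 (highest peak end on chromosome 1 at 249236554, length 249250621, from circlize 0.4.16). S100A9 and KRT85 were placed from an hg19 gene sample shipped with GenomicFeatures 1.54.1 (R 4.3.3). RefSeq tables on GRCh38.p14 gave only gene names, order, promoter sequences and the spacing of S100A12 and S100A8 from S100A9. No coordinates were converted. Covered shares were computed in pandas 2.3.3 and numpy 2.4.6 (Python 3.11.15), in windows of 5 kb and stretches of 50 kb, and checked on simulated peaks. Treatments were compared by an exact two-sided permutation test over the 6 assignments. The named regions were, per block, the 3 longest intervals covered in all 4 libraries, the longest free of peaks, the highest and lowest stretch, every called window, the widest peak of each library and the S100 interval. Members and lists were chosen with earlier results of these data known. Alternatives changed the q threshold, gaps, list length, window size, call threshold, block limits and libraries. The number of sample columns left unused was 0.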

Additional observations from a re-analysis of the deposited data

How the results depend on the processing

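Differences in covered share (AC220 minus DMSO, percentage points) are given first. The epidermal differentiation complex kept its sign under the 7 alternatives that change its value and use all 4 libraries (−10.0 to −6.47 points). The type II block turned to −1.70 and −0.938 points with −log10 q of at least 2 and 3, the type I block to 3.29 and 2.28 points with DMSO lists or all lists shortened, and the 3 blocks together to 0.193 points with DMSO lists shortened. Leaving out 1 library gave −12.1 to 16.1 points in type II (−10.2 without DMSO 1), −21.3 to 14.96 in type I (13.9 without DMSO 2), −26.0 to 8.89 in the complex (7.29 without DMSO 2), −21.4 to 12.3 over all 3 (10.8 without DMSO 2) and −0.45 to −0.28 for the log2 ratio of the complex to type II. That ratio turned to 0.53 and 0.31 with the q thresholds; its alternatives, and single sets for window counts, were chosen after seeing the data. The cause of these changes was not tested.

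With the replicate block the values stay as they are and the smallest possible p is 0.5, which all 3 blocks and the ratio reached in the exact test. Any difference of the same direction in both sets reaches it. The labels do not say that a number marks a shared culture; deviations of same-numbered libraries correlated at 0.497 over the 688 windows.

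Window counts moved under most choices, and so did the shares over all windows, given here as genome-wide. There were 1720 windows of 2 kb and 344 of 10 kb in the blocks. Called lower (1 window; 0.0883% genome-wide) became 22 with 2 kb windows (0.416%), 0 with 10 kb windows (0.00725%), 7 and 0 with smaller and larger thresholds (0.568% and 0.00445%), 2 with −log10 q of at least 2 (0.0858%), 2 with gaps of 3 kb closed (0.211%), 0 and 11 with DMSO or all lists shortened (0.0435% and 0.286%), and 1 to 104 without 1 library (85 without DMSO 1, 7.23%; 104 without AC220 2, 3.59%). Called higher (0) became 14 with 2 kb windows (0.107%), 8 with the smaller threshold (0.156%), 3 with gaps closed (0.08%), 4 and 15 with lists shortened (0.164% and 0.3%) and 1 to 50 without 1 library (47 without AC220 1, 1.73%; 50 without DMSO 2, 1.41%). Lower in both sets (81) became 47 with 10 kb windows (3.74%), 17 with the larger threshold (0.724%), 24 with the q threshold (0.713%), 26 with gaps closed (1.93%), 36 with all lists shortened (0.928%), and 241 and 186 in set 1 and set 2 alone (8.79% and 14.5%). Higher in both (31) became 53 and 15 with 2 and 10 kb windows (0.705% and 0.563%), 48 and 8 with the thresholds (1.49% and 0.105%), 2 with the q threshold (0.148%), 52 with DMSO lists shortened (1.63%), and 110 and 120 in single sets (4.75% and 5.48%). With all lists shortened, sequence marked in all 4 libraries went from 609 to 345 kb, in both AC220 only from 20.4 to 49.8 kb, in set 1 only from 3.39 to 139.5 kb and in set 2 only from 598 to 138 kb.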
